A study of Oryza sativa with 26 samples.

Results

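Heat-shock proteins and heat-shock factors were followed across the lamina joints of rice, the hinges between leaf blade and leaf sheath. Members were chosen by name. A gene was taken if its symbol or a synonym, without the species prefix Os, begins with HSP and a digit or is HSFA, HSFB or HSFC with a digit and an optional letter. This rule found 49 genes, and 43 of them have a probe set that the annotation assigns to no other gene, out of 17905 genes with such a probe set on the array. Where a gene has several such probe sets, the one with the highest mean over all arrays stands for it. The 43 measured genes are 23 heat-shock proteins (19 of 22 small heat-shock proteins, 3 of 3 HSP90 genes and the HSP100 gene HSP101) and 20 heat-shock factors (12 of 13 HSFA, 5 of 6 HSFB and 3 of 4 HSFC genes). HSP16.9C, HSP18.9, HSP19.0, HSFA6A, HSFB4C and HSFC2B had no such probe set and were not analysed here, and no HSP70 gene carries a name that meets the rule.

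The study measured RNA of wild-type japonica rice, cultivar Zhonghua 11, on 26 Affymetrix rice arrays in 13 groups of 2. Joints of the last leaf, of the leaf before it and of the leaf before that, here called last, second and the third joint, were cut at stage 2 (young and pale), stage 4 (mature), stage 5 (opening) and stage 6 (senescent). In stage order, harvest fell 60, 65, 70 and 80 days after sowing for the last joint. For the second joint it fell at 55, 60, 65 and 75 days. The third joint was harvested at 50, 55, 60 and 70 days. The thirteenth group is a piece of blade beside the third joint, cut at stage 4 and 55 days. No group was treated, and all plants shared 1 greenhouse regime of warm days and cooler nights. The labels call the 2 arrays of a group biological replicates and do not say whether plants or plots differed, so the p-values reflect no more than the scatter of these samples, which may be technical.

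Heat-shock proteins are molecular chaperones. Small heat-shock proteins hold unfolding proteins and keep them from clumping, HSP90 helps signalling proteins such as receptors and kinases to reach their active fold, and HSP100 pulls aggregated proteins apart. Heat-shock factors are the transcription factors that switch these genes on: in plants, class A factors carry an activation domain, while class B factors lack it and several of them act as repressors. Members of both families are also expressed during normal development, seed maturation being the best known case.

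All values are log2 expression per probe set as the authors deposited them, so that a difference of 1 is a 2-fold change, and a value of 1 probe set says nothing about the amount of another gene. Array medians lay between 5.07 and 5.17. The second joint at stage 5 replicate 1 had an upper quartile of 7.50, beside 7.90 to 8.07 on the other arrays. The Gapdh control, whose 3′ probe set exceeds its 5′ probe set by more where RNA is shorter, differed between groups: by 3.0 to 3.41 on the 6 arrays of stage 6, by 2.93 and 3.33 in the last joint at stage 5, by 3.78 in the third joint at stage 4 replicate 2, and by 1.47 to 2.09 on the rest. A second Gapdh pair did not show this shift. It gave 0.10 to 0.38 on the 6 arrays of stage 6 and 0.38 and 0.06 in the last joint at stage 5. In the third joint at stage 4 replicate 2 it gave 0.43, and on the rest -0.12 to 1.12. The first pair is the covariate used below, and whether RNA length differed between groups was not tested. LG1, which is required to form the joint, was at 7.52 to 9.89 on the 24 joint arrays and at 6.03 and 5.84 on the leaf arrays. In such tissue samples fewer cells of a type and less RNA per cell cannot be told apart.

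Of the 3 HSP90 genes, HSP81-1 varied most. HSP81-3 was between 13.84 and 14.51 on all 26 arrays, HSP81-2 between 12.81 and 14.01, and HSP81-1 between 11.58 and 13.76, with joint group means of 11.6 to 13.6. The brightest small heat-shock protein by probe set, HSP17.9B, lay between 10.51 and 12.51, and the disaggregase HSP101 between 3.68 and 5.97. Of the 43 genes, 14 had joint group means that spanned less than 1 unit, 11 spanned 1 to 2 units and 18 more than 2 units. The widest spans were those of the factor HSFA4D, with 4.40 in the third joint at stage 2 and 10.85 in the third joint at stage 6, and of the small heat-shock protein HSP24.1, with 4.93 in the third joint at stage 2 and 10.81 in the second joint at stage 6. Probe sets of 7 genes had a mean under 5, below the array medians, and 5 of these 7 stayed at or below 5.34 and spanned less than 1 unit: HSP16.0, HSP17.8, HSP21.9, HSP23.2 and the chloroplast protein HSP26.7. For HSP18.1, HSP18.6, HSP18.8, HSP21.9, HSP26.2 and HSP81-3 the probe set is of a kind whose probes may also bind related transcripts.

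**Figure D1:**
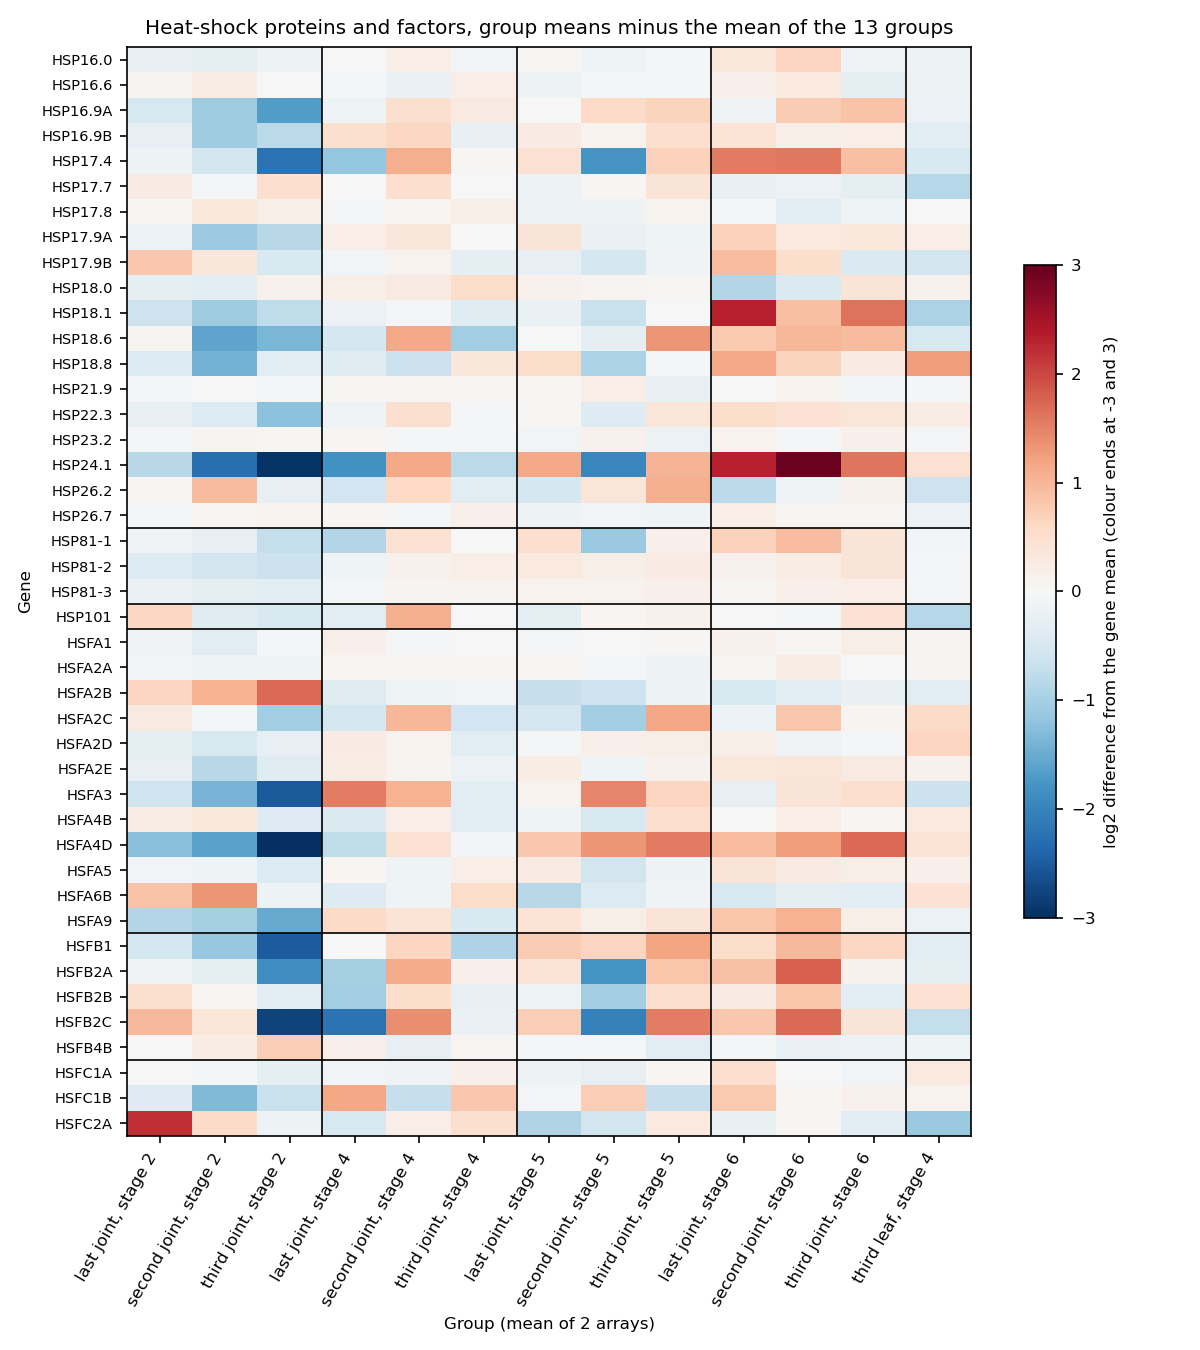
Group means (2 arrays each) of the 43 measured genes, drawn as log2 difference from each gene's mean over the 13 groups; rows are grouped into small heat-shock proteins, HSP90, HSP100, HSFA, HSFB and HSFC, and columns run from stage 2 to stage 6 with the leaf at the right. HSFA4D and HSP24.1 have the widest spans, and HSP17.4, HSP24.1, HSP81-1, HSFB2A and HSFB2C are blue in the last joint at stage 4 and the second joint at stage 5. The lowest joint means of HSP17.4 (4.97), HSP24.1 (4.93), HSFB2A (7.42) and HSFB2C (5.67) are those of the third joint at stage 2. That of HSP81-1 (11.61) is in the second joint at stage 5.

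As joints matured, heat-shock factors of several classes changed. At stage 4 against stage 2, averaged over the 3 leaves, 7 of 43 genes were higher and 1 was lower, which is 16.3% and 2.33% of them, while 5.67% of all 57258 probe sets tested were called higher and 5.8% lower. Of all 17905 genes, taken by their brightest probe set as the members were, 11.2% were higher and 11.1% lower, so the share of members called in either direction (8 of 43) was not above that of genes in general. A gene was called where limma's adjusted p was under 0.05 over all probe sets and the difference at least 2-fold. The called genes comprised 6 of the 20 factors (HSFA4D, HSFA3, HSFA9, HSFB1 and HSFC1B higher, HSFA2B lower) and 2 of the 23 heat-shock proteins (HSP24.1 and HSP16.9A, both higher). The median difference of the 43 genes was 0.27, beside 0.000221 over all probe sets and 0.07 over all genes. Of markers of other tissues, 3 of 3 green leaf genes were lower at this step, 1 of 5 epidermis genes was higher and 2 were lower, 2 of 7 meristem genes were higher and 1 lower, and 1 of 10 panicle genes was higher. Their part in the result was not tested.

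HSFA4D, known in rice as the gene of the spotted-leaf mutant spl7, gave 7.54, 9.39 and 9.65 as the lowest, median and highest of 6 stage 4 joint arrays, against 4.36, 7.54 and 8.05 at stage 2. It rose 5.29-fold (log2 2.40 ± 0.28 SE, adjusted p = 3.07e-06), and the arrays of the 2 stages overlapped only through the last joint at stage 4 replicate 2, at 7.54. The third joint at stage 2, at 4.36 and 4.44, lay under the other stage 2 joints, which gave 7.42 to 8.05, and the step was 4.65 ± 0.48 in the third joint and 2.06 ± 0.48 in the second. In the last joint it was 0.50 ± 0.48 (adjusted p = 0.637, not called), with 9.22 and 7.54 at stage 4, against 8.05 and 7.71 at stage 2. HSFA3, which in Arabidopsis is switched on by the drought factor DREB2A, gave 11.20, 12.62 and 13.43 at stage 4, against 7.86, 10.27 and 11.66 at stage 2. It rose 4.78-fold (2.26 ± 0.37, adjusted p = 0.000139). The steps were 2.12 in the last, 2.44 in the second and 2.21 in the third joint, and over single arrays left out they ran between 1.43 and 2.81, between 2.23 and 2.65, and between 1.0 and 3.41. All 3 were called, each call was lost without any 1 of 3 arrays, and those of the last and the third joint were lost with the Gapdh covariate.

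HSFA9 belongs to a group best known from seeds in Arabidopsis and sunflower, and in these joints it gave 8.73, 10.26 and 10.57 at stage 4, against 8.05, 8.72 and 9.26 at stage 2 (1.30 ± 0.26, adjusted p = 0.000738). HSFB1, whose Arabidopsis counterpart represses heat-shock genes, gave 10.30, 11.16 and 11.94 at stage 4, against 7.89, 10.09 and 10.77 at stage 2 (1.29 ± 0.25, adjusted p = 0.000673). In HSFA9 1 of the 6 stage 4 arrays lay within the stage 2 range, and in HSFB1 3 of 6 did, all 3 below the last joint at stage 2 (10.64 and 10.77). HSFC1B gave 8.56, 9.95 and 11.02 at stage 4, against 7.38, 8.37 and 9.86 at stage 2 (1.22 ± 0.36, adjusted p = 0.015). This call rests on 2 arrays: it was 1.03 with an adjusted p of 0.0539 without the last joint at stage 4 replicate 2, and 0.80, under 2-fold, without the third joint at stage 2 replicate 2.

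HSFA2B ran the other way. Its 6 stage 4 arrays gave 4.39, 4.70 and 5.45 (lowest, median and highest), against 5.45, 6.04 and 6.90 at stage 2, and it fell by 1.32 ± 0.18 on the log2 scale (adjusted p = 2.64e-05), with a call in each of the 3 leaves. The call in the last joint (-1.0, adjusted p = 0.0483) was lost without any 1 of 18 arrays. After stage 2 it stayed at 4.21 to 5.45 on every joint array, a signal close to the array medians. Among the heat-shock proteins, HSP16.9A gave 6.04, 6.33 and 7.04 at stage 4, against 4.37, 5.19 and 5.86 at stage 2, with no overlap (1.28 ± 0.19, adjusted p = 5.82e-05). HSP24.1 gave 5.90, 7.06 and 9.32 at stage 4, against 4.78, 5.61 and 7.76 at stage 2 (1.51 ± 0.36, adjusted p = 0.00353), but its steps were 3.41 in the second, 2.12 in the third and -1.0 in the last joint, of which that of the last joint was not called. HSP81-2 and HSP81-3, cytosolic HSP90 genes, passed the p threshold with 0.60 ± 0.08 and 0.31 ± 0.07 (adjusted p = 1.32e-05 and 0.00144) and did not reach 2-fold on their brightest probe sets. The other probe sets of HSP81-3 disagree: one was called higher (1.02 ± 0.10, adjusted p = 3.75e-07), another gave 0.59 ± 0.08 (adjusted p = 2.72e-05), and 2 dimmer ones gave 0.06 and 0.10.

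**Figure D2:**
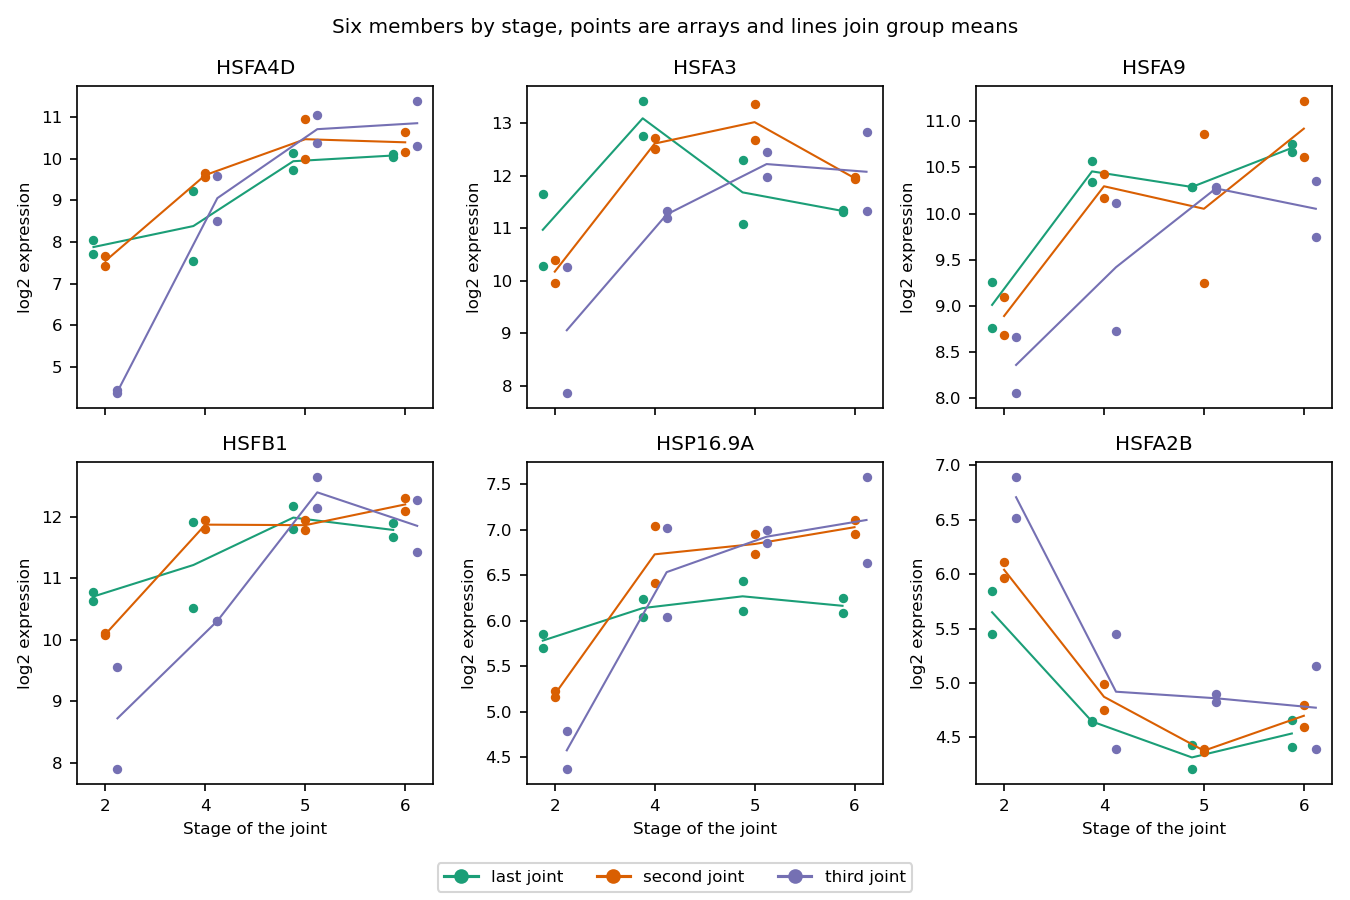
Log2 expression (vertical axis) of HSFA4D, HSFA3, HSFA9, HSFB1, HSP16.9A and HSFA2B at stages 2, 4, 5 and 6 (horizontal axis, not to scale in time); each point is 1 array, colours mark the leaf and lines join the means of 2 arrays. HSFA4D starts at 4.36 and 4.44 in the third joint and ends between 10.04 and 11.39 in all joints, and HSFA2B is the one of the 6 that is lower after stage 2.

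When the leaf angle opened, few members moved. At stage 5 against stage 4, averaged over the leaves, HSFA4D alone was called: 1 of 43 genes higher and 0 lower, beside 0.355% higher and 0.341% lower of all probe sets and 0.676% and 0.693% of all genes by brightest probe set. Its 6 stage 5 arrays gave 9.74, 10.26 and 11.04 (lowest, median and highest), against 7.54, 9.39 and 9.65 at stage 4, without overlap (1.36 ± 0.28, adjusted p = 0.0195). The call was lost when only the 6 groups compared entered the fit (adjusted p = 0.102) and when any of 7 arrays was left out, where the difference lay between 1.08 and 1.64 over all 26 omissions. HSFB1 came next with 0.95 ± 0.25 (adjusted p = 0.0877), and 2 of the 43 genes had an unadjusted p under 0.05. The averages hide opposite steps in single leaves.

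In senescent joints 3 of the 19 small heat-shock proteins were higher. At stage 6 against stage 5, 4 of 43 genes were called higher and 0 lower, beside 0.899% and 0.837% of all probe sets and 1.68% and 1.69% of all genes by brightest probe set: the small heat-shock proteins HSP24.1, HSP18.1 and HSP17.4 and the class B factor HSFB2A. HSP18.1, a class I cytosolic small heat-shock protein, was the one whose step was called in each leaf. It gave 7.05, 8.59 and 9.64 as the lowest, median and highest of 6 stage 6 arrays, against 5.98, 6.66 and 6.87 at stage 5, without overlap, and rose 3.77-fold (1.91 ± 0.20, adjusted p = 6.87e-05). Within leaves, HSP18.1 was the 1 gene called higher in the last joint and the 1 called higher in the third, with 0 lower in either, beside 0.0699% higher and 0.0699% lower of all probe sets in the last joint and 0.286% and 0.742% in the third. With the mean of all probe sets of a gene, 1 member was called in each, beside 50 and 388 of 17905 genes. The steps of HSP18.1 were 2.52 ± 0.35 in the last, 1.56 ± 0.35 in the second and 1.65 ± 0.35 in the third joint, calls that were lost without any 1 of 2, 2 and 3 arrays. With the Gapdh difference as a covariate the calls in the second and the third joint were lost as well, and the step in the second joint was 0.87 to 2.26 over the arrays left out. In the leaf piece HSP18.1 gave 5.97 and 5.82.

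Of the 3 leaves, the second joint alone was called in the other 3 genes. In it 8 genes were higher and 0 lower, beside 2.82% and 1.11% of all probe sets and 5.36% and 2.19% of all genes: HSP24.1, HSP18.1, HSP17.4, HSP81-1, HSFA2C, HSFB2A, HSFB2B and HSFB2C. The stage 5 arrays of this joint are those of 65 days, on which 6 of these 8 genes had low values, and one of them is the array of low upper quartile. Without that array and the third joint at stage 4 replicate 2, 3 genes were called, and HSP17.4, HSP18.1, HSFA2C, HSFB2B and HSFB2C were not. With the mean of its 2 probe sets, HSP81-1 gave 0.36 in the second joint and was not called (limma adjusted p = 0.281). Markers moved at this step of the second joint too: 3 of 3 green leaf genes (median -2.20) and 2 of 5 epidermis genes were lower, 1 of 7 meristem genes was higher, and of 10 panicle genes 1 was higher and 1 lower. Their part in the result was not tested. HSP24.1 gave 10.47 and 11.15 in the second joint at stage 6, against 6.23 and 5.60 at stage 5, a step of 4.90 ± 0.62 (adjusted p = 0.000722), while its steps of 1.20 in the last and 0.57 in the third joint were not called. HSP17.4 had a step of 3.34 ± 0.59 in the second joint (adjusted p = 0.00488), beside 1.11 and 0.19 in the other two leaves, and HSFB2A had 3.58 ± 0.54 (adjusted p = 0.00189), beside 0.48 and -0.72. Averaged over the leaves, the differences were 2.22 ± 0.36 for HSP24.1 (adjusted p = 0.0018), 1.55 ± 0.34 for HSP17.4 (adjusted p = 0.0136) and 1.11 ± 0.31 for HSFB2A (adjusted p = 0.0459). The Gapdh difference also moved at this step, to 3.0 to 3.41 at stage 6, against 1.81 to 3.33 at stage 5. With it as a covariate HSP18.1 (1.96, adjusted p = 0.0127) and HSP24.1 (2.64, adjusted p = 0.0357) were called, HSP17.4 (1.92, adjusted p = 0.0869) and HSFB2A (1.64, adjusted p = 0.0935) were not, and the call of HSFB2A was also lost without any 1 of 17 arrays.

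Neighbouring genes gave different sets of calls. On chromosome 3, HSP17.4, HSP18.1 and HSP17.7, all class I small heat-shock proteins, lie side by side with 0 annotated genes between them in the RefSeq gene table (assembly ASM3414082v1). HSP18.1 was called at stage 6 in every leaf, HSP17.4 in the second joint alone, and HSP17.7 gave 9.07 to 9.50 on all 6 stage 6 arrays, against 9.43 to 10.08 at stage 5 (-0.33 ± 0.09, adjusted p = 0.0442, under 2-fold). On chromosome 1, HSP16.6, HSP17.9B, HSP16.9C, HSP16.9A and HSP16.9B lie in a row. At stage 4 against stage 2 the steps were 1.28 for HSP16.9A, 1.0 ± 0.19 for HSP16.9B (adjusted p = 0.000559, just under 2-fold) and -0.32 ± 0.24 for HSP17.9B, while HSP16.6 stayed between 4.78 and 5.89 on all 26 arrays.

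Among joints of stages 4 to 6, those cut 65 days after sowing stood apart in some genes of this family. They are the last joint at stage 4 and the second joint at stage 5. In 7 of the 43 genes all 4 arrays of 65 days lay below all 14 other joint arrays of stages 4 to 6, and in 0 genes above them, beside 0.583% and 0.379% of all probe sets. The 7 genes are the class B factors HSFB2A, HSFB2B and HSFB2C, the class A factor HSFA4B, the small heat-shock proteins HSP17.4 and HSP24.1, and the HSP90 gene HSP81-1. Against the 4 arrays of the last joint at stage 5 and the second joint at stage 4 alone, the same 7 lay below and HSFC1B above, beside 3.21% and 2.85% of all probe sets. The share among genes by brightest probe set was not worked out for either overlap. This pattern was noticed in the values and then described, so its tests are no independent support.

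HSFB2C gave 7.20 and 5.24 in the last joint at stage 4 and 6.09 and 6.74 in the second joint at stage 5, against 9.88 and 8.48 in the last joint at stage 5 and 10.19 and 9.49 in the second joint at stage 4. HSP24.1 gave 5.90 and 6.21, then 6.23 and 5.60 in the 65-day joints, against 9.03 and 9.0, then 9.32 and 8.72 in the same 2 other groups. No 65-day array of either gene reached the other joint arrays of stages 4 to 6, whose lowest value was 7.91 for HSFB2C and 6.68 for HSP24.1. HSP81-1 gave 11.61 and 12.07, then 11.58 and 11.63 at 65 days, against 13.33 and 13.09, then 13.22 and 13.10. HSP17.4 gave 6.03 and 6.07, then 5.16 and 5.71 at 65 days, against 7.77 and 7.52, then 8.58 and 7.98. HSFB2A gave 8.23 and 8.36, then 7.22 and 7.77 at 65 days, against 9.86 and 9.53, then 10.70 and 10.12. In each case both leaves were low at 65 days, although one was mature and the other opening.

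Stage and leaf are balanced when the 2 groups of 65 days are set against the last joint at stage 5 and the second joint at stage 4. In this comparison 5 of 43 genes (11.6%) were called lower and 0 higher, beside 0.428% lower and 0.309% higher of all probe sets and 0.899% and 0.626% of all genes by brightest probe set. HSFB2C was 9.15-fold lower (-3.19 ± 0.57, adjusted p = 0.0102) and HSP24.1 8.19-fold lower (-3.03 ± 0.44, adjusted p = 0.00287). HSP17.4 was lower by 4.67-fold (-2.22 ± 0.42, adjusted p = 0.0134) and HSFB2A by 4.46-fold (-2.16 ± 0.38, adjusted p = 0.00979). HSP81-1 was 2.75-fold lower (-1.46 ± 0.19, adjusted p = 0.00139). HSFB2B (-1.24, adjusted p = 0.129), HSFA2C (-1.02, adjusted p = 0.217) and HSFA4B (-0.50, adjusted p = 0.0971) were not called, and neither was HSFC1B on the other side (1.32, adjusted p = 0.182). HSFA3, also not called, gave 13.43 and 12.76, then 12.68 and 13.37 at 65 days. In the groups compared it gave 12.29 and 11.08, then 12.51 and 12.72. The stage 4 arrays behind its called step in the last joint are those of 65 days.

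The count of 5 fell to 3 without the last joint at stage 5 replicate 1 and to 2 without the second joint at stage 4 replicate 1, with HSP24.1 and HSP81-1 called in both. The other probe sets of HSFB2C gave -2.93 and -2.01 and that of HSFB2A gave -2.10, all called, whereas the other probe set of HSP81-1 gave -0.16 ± 0.22 (adjusted p = 0.811), so that its 2 probe sets disagree. With the mean of its 2 probe sets HSP81-1 gave -0.81 in this comparison, under 2-fold and not called. The Gapdh difference was 1.81 to 1.93 on the 65-day arrays, against 1.89 to 3.33 on the 4 arrays compared with them, and with it as a covariate the same count of 5 was called. The second Gapdh control was at 1.12 in the second joint at stage 5 replicate 1, a 65-day array that is also the one of low upper quartile, against -0.12 to 0.61 on the other 25 arrays. Without the array of low upper quartile, together with the third joint at stage 4 replicate 2, 4 genes were called. The light-harvesting genes CAB2R, RCABP89 and RCABP69, markers of green leaf, gave differences of 1.56, 1.41 and 0.78 in this comparison, none called, and the joint marker LG1 gave -0.57. Their part in the result was not tested.

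**Figure D3:**
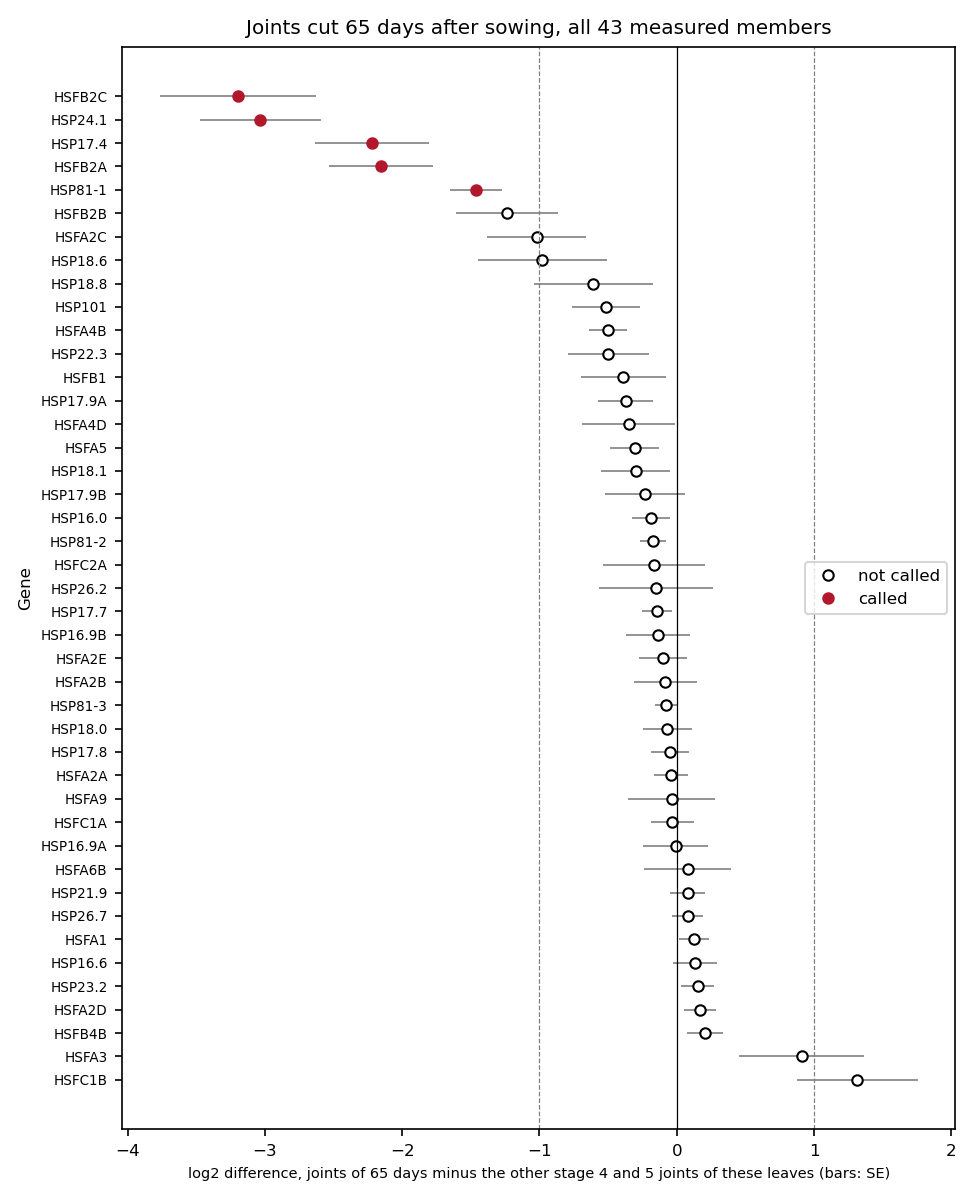
Log2 difference of all 43 measured genes between the joints cut 65 days after sowing (last joint at stage 4 and second joint at stage 5) and the last joint at stage 5 with the second joint at stage 4; bars are standard errors of the limma fit, filled points are called and dashed lines mark a 2-fold difference. The 5 called genes lie between -3.19 and -1.46, and 10 of the 43 differences are above 0.

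The other days do not form a line in HSFB2C, while HSP24.1 was mostly higher on later days. HSFB2C was at 5.76 and 5.58 in the third joint at 50 days, at 7.94 to 9.29 on the joint arrays of 55 days, at 8.92 to 10.30 at 60 days, and after the 65-day values at 7.91 to 9.88 at 70 days. HSP24.1 was at 4.78 and 5.09 at 50 days, at 5.33 to 7.44 at 55 days and at 6.35 to 9.32 at 60 days. It was at 8.99 to 9.95 at 70 days and 10.19 to 11.15 at 75 and 80 days. Each day holds its own combinations of leaf and stage, and 50, 75 and 80 days hold 1 group each, so that day and the combination of leaf and stage cannot be told apart.

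**Figure D4:**
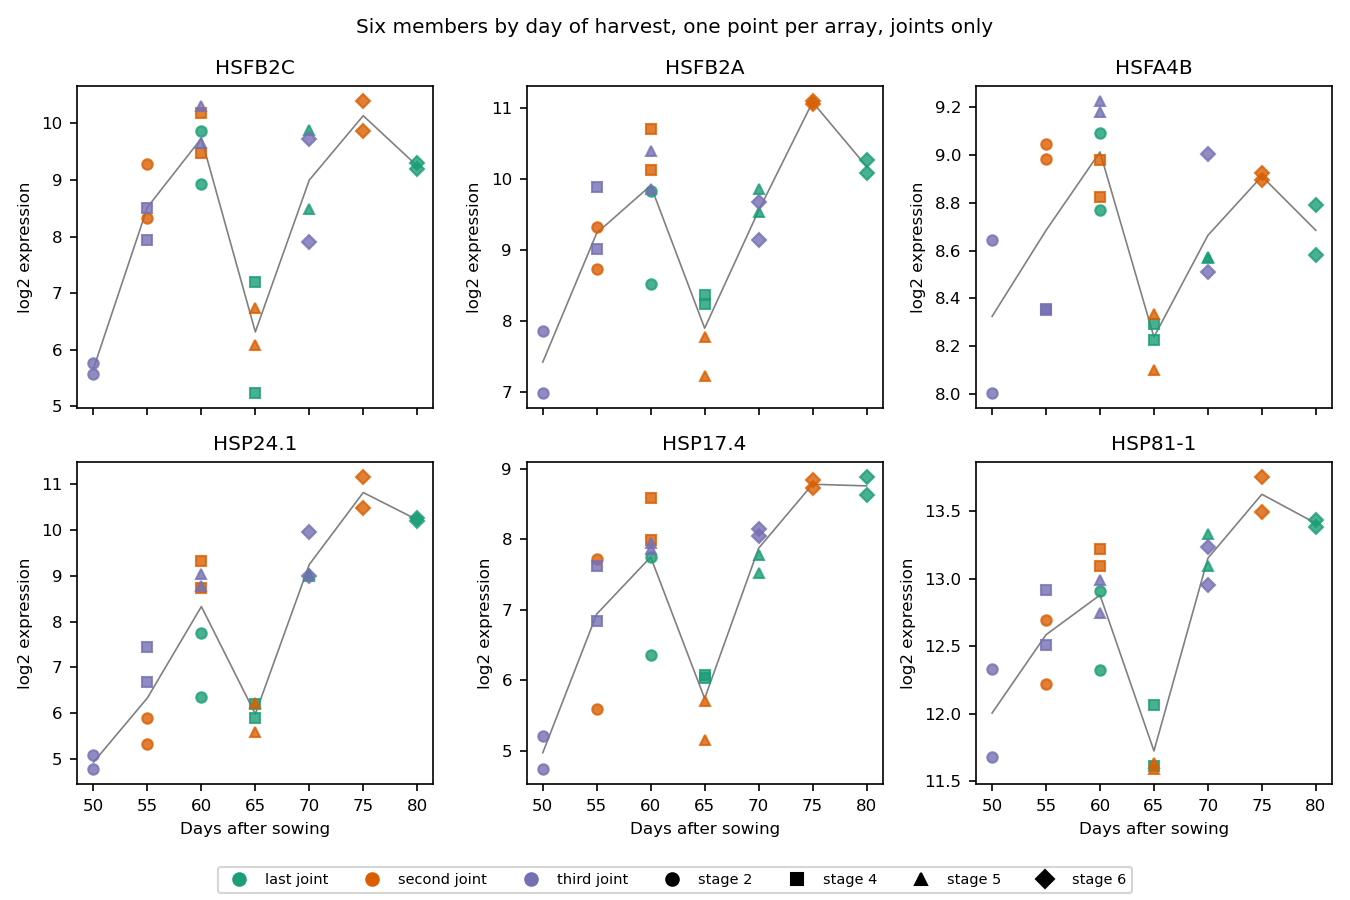
Log2 expression (vertical axis) of HSFB2C, HSFB2A, HSFA4B, HSP24.1, HSP17.4 and HSP81-1 against days after sowing (horizontal axis) on the 24 joint arrays; colours mark the leaf, symbols the stage, and the grey line joins the mean of the groups of a day. In each panel the 4 arrays of 65 days lie below every array of stages 4 to 6 from another day.

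The same genes set the leaf positions apart in time. A limma F-test over the 6 contrasts that compare a stage step between leaves was passed by 9 of 43 genes (20.9%), beside 5.48% of all probe sets. This test asked for an adjusted p under 0.05 and set no limit on size. They were HSP81-1, HSP24.1, HSFB2C, HSFA4D, HSFB2A, HSFA4B, HSP17.4, HSFA2C and HSP17.7. Of these, 6 belong to the 7 genes that were low at 65 days, from which the test is not independent. With the mean of all probe sets of a gene, 11 of 43 members passed the F-test, beside 1963 of 17905 genes. From stage 4 to stage 5, 5 genes were called lower in the second joint and 0 higher, beside 0.908% lower and 0.382% higher of all probe sets, with HSFB2C at -3.42, HSP24.1 at -3.10, HSFB2A at -2.92, HSP17.4 at -2.85 and HSP81-1 at -1.55. None of the 5 was called without the array of low upper quartile and the third joint at stage 4 replicate 2, when only 1 array of the second joint at stage 5 was left. In the last joint the step was called higher for 2 genes and lower for 0, beside 0.473% and 0.318%: HSP24.1 at 2.96 and HSP81-1 at 1.37, each call being lost without any 1 of 4 arrays. With the mean of its 2 probe sets, HSP81-1 gave -0.93 in the second and 0.69 in the last joint and was called in neither. Counted by the mean of all probe sets of a gene, 5, 1 and 1 members were called in the second, the last and the remaining joint. Of all 17905 genes, 604, 337 and 263 were called. In the third joint HSFB1 was the 1 gene higher (2.09, adjusted p = 0.0331) and 0 were lower, beside 0.449% and 0.306%.

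Stage 4 against stage 2 within each leaf gave more calls in the lower leaves. In the second joint 10 genes were higher and 2 lower, beside 5.39% and 5.47% of all probe sets, in the third joint 8 were higher and 1 lower, beside 7.11% and 7.39%, and in the last joint 2 were higher and 3 lower, beside 4.12% and 4.96%. Whether these counts differ between leaves was not tested. Counted by the mean of all probe sets of a gene, 14, 9 and 6 of 43 members were called in the same order of joints. Of all 17905 genes, 3786, 4683 and 3353 were called. By this count the share of members called was above that of genes in general in the second joint alone. In the second joint the disaggregase HSP101 gave 5.97 and 5.76 at stage 4, against 4.46 and 4.42 at stage 2 (1.42, adjusted p = 0.00893), and HSP18.6 gave 8.66 and 8.51, against 5.81 and 5.89 (2.74, adjusted p = 0.00835). The probe set of HSP101 is dim, with a mean of 4.80, below the array medians. In the last joint HSP101 gave 4.97 and 5.87 already at stage 2. In the last joint HSFC2A fell to 6.01 and 6.33 at stage 4, against 8.90 and 8.78 at stage 2 (-2.67 ± 0.53, adjusted p = 0.00227), and HSFB2C was also lower (-3.18, adjusted p = 0.0132), its stage 4 arrays being those of 65 days.

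No member was called between the third joint and the leaf beside it, although HSFC2A and HSFA2D were called under other processing. At stage 4, limma called 0 of 43 genes, beside 3.42% of all probe sets higher and 3.99% lower and 7.6% and 6.54% of all genes by brightest probe set, although 6 genes had an unadjusted p under 0.05. The lowest adjusted p was that of HSFA2D, whose brightest probe set gave 10.18 and 9.86 in the third joint, against 11.02 and 10.97 in the leaf (-0.97 ± 0.16, adjusted p = 0.000709), just under 2-fold. HSP17.7 ran the other way and gave 9.49 and 9.72 in the third joint, against 8.78 and 8.69 in the leaf (0.87 ± 0.16, adjusted p = 0.00145), which is under 2-fold. HSFA4B gave 8.36 and 8.35 in the joint, against 9.12 and 8.87 in the leaf (-0.64 ± 0.19, adjusted p = 0.0461). HSFC2A gave 8.12 and 6.13 in the joint, against 5.50 and 5.57 in the leaf (1.59 ± 0.53, adjusted p = 0.0698). Its joint arrays are far apart, and the difference was 2.58 without joint replicate 2 and 0.60 without joint replicate 1. By limma HSFC2A was called higher without dim probe sets (1.59, adjusted p = 0.0463) and with the Gapdh covariate (2.64, adjusted p = 0.00502). With the mean of all probe sets of a gene, HSFC2A was called higher (adjusted p = 0.0456) and HSFA2D lower (-1.40, adjusted p = 0.0185).

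The leaf arrays themselves were far apart in genes called lower at 65 days. HSP24.1 was 9.67 and 6.98 on the 2 leaf arrays, HSFB2C 9.15 and 6.29, HSFB2A 10.02 and 7.95, and HSP17.4 7.60 and 5.87. All 5 genes called lower at 65 days were higher on leaf replicate 1, by 0.70 to 2.86. In the joints, all 5 were also higher on replicate 1 than on replicate 2 in the last and the second joint at stage 2, the last joint at stage 5, and the second and the third joint at stage 4, while in the last joint at stages 4 and 6 and in the second joint at stage 5 1 of 5 was. The difference of HSP24.1 between the third joint and the leaf was 0.07 without leaf replicate 1 and -2.61 (adjusted p = 0.00439) without leaf replicate 2, against -1.27 with both.

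Leaf position by itself was not called in any member. Averaged over the 4 stages, 0 of 43 genes differed between the last and the third, the second and the third, or the last and the second joint, beside 0.751%, 0.26% and 0.136% of all probe sets called higher and 0.389%, 0.115% and 0.0524% lower. At an unadjusted p under 0.05 there were 7, 5 and 8 genes in these comparisons. The only adjusted p under 0.05 was that of HSP18.0, with means of 9.23 in the last and 9.72 in the third joint (-0.49 ± 0.13, adjusted p = 0.0322), which is under 2-fold.

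HSFA2C and HSFA2D, class A factors of a subgroup best known from prolonged heat in Arabidopsis, could not be read from 1 probe set. The annotation assigns to HSFA2D a probe set that stayed between 9.83 and 11.02 on all arrays and another that varied. The other one gave 6.36 and 5.81 in the last joint at stage 4 and 6.06 and 5.46 in the second joint at stage 5, against 7.75 and 8.0 in the last joint at stage 5 and 9.56 and 8.47 in the second joint at stage 4 (-2.52 ± 0.49, adjusted p = 0.0166), while the steady one differed by 0.17. The gene record of HSFA2D also lists names of acireductone dioxygenase, an enzyme of methionine recycling, and so does that of HSFA2C. Which of the probe sets reports the factor was not tested. The 2 probe sets of HSFA2C differed most in the second joint at stage 2, with 7.61 and 7.52 on the probe set used above and 10.45 and 8.49 on the other.

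**Figure D5:**
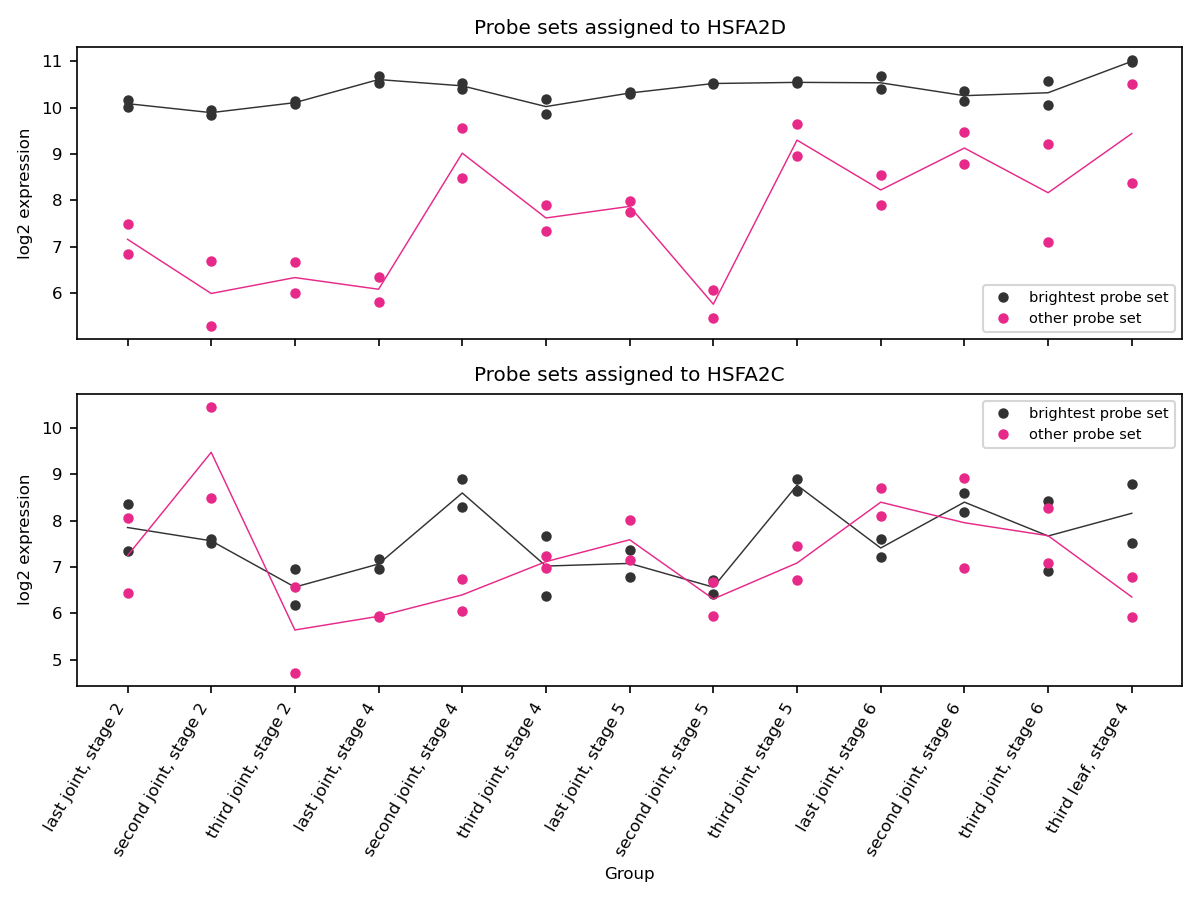
Log2 expression on each array (points, lines join means of 2) of the 2 probe sets assigned to HSFA2D (upper panel) and the 2 assigned to HSFA2C (lower panel), by group from stage 2 to stage 6 with the leaf at the right. The steady HSFA2D probe set stays within 9.83 and 11.02 while the other runs between 5.29 and 10.50.

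Other genes of the pathway were taken from name lists of chaperones outside the rule. Of 5 J proteins, partners of HSP70, DJC27 was called at 65 days, with 8.08 and 8.89, then 8.02 and 7.52, against 9.56 and 9.03, then 10.28 and 9.84 in the groups compared (-1.55 ± 0.36, adjusted p = 0.043). Of 7 chaperonins and organelle chaperones, CLPB-M, a relative of HSP101, was lower (-1.91 ± 0.40, adjusted p = 0.0272) and 0 were higher. Of 16 chaperones of the endoplasmic reticulum and their regulators and 10 further heat-response genes, limma called 0 at 65 days, with 4 and 1 genes at an unadjusted p under 0.05. Over the 38 genes of the 4 lists, 2 were lower and 0 higher, beside 0.428% and 0.309% of all probe sets. The medians of the 4 lists were -0.07, -0.26, -0.11 and -0.07, beside 0.00410 over all probe sets.

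At stage 4 against stage 2, the Clp chaperones CLPC2 (1.06 ± 0.13) and CLPD1 (1.33 ± 0.30) and the ascorbate peroxidase APX8 (1.27 ± 0.16) were higher. Of the 38 genes of the 4 lists, 3 were thus higher and 0 lower, beside 5.67% and 5.8% of all probe sets. Neither share was above that of all genes by brightest probe set given above for this step. In the third joint against the leaf, CLPC2 (-1.49 ± 0.22), CLPD2 (-1.30 ± 0.24) and APX8 (-2.07 ± 0.27), which are chloroplast proteins, were lower, and PDIL1-5, a disulfide isomerase-like protein, was higher (2.01 ± 0.21). Of the 38 genes, 1 was thus higher and 3 lower, beside 3.42% and 3.99% of all probe sets. The shares of all genes by brightest probe set, given above for this comparison, were larger. At stage 5 against stage 4 and stage 6 against stage 5, limma called 0 of the 38, with 3 and 15 at an unadjusted p under 0.05. The green leaf markers moved in both of these comparisons with calls: all 3 were lower at stage 4 against stage 2 (CAB2R by -1.41, RCABP69 by -1.22 and RCABP89 by -1.05), and RCABP69 (-3.03) and RCABP89 (-3.20) were lower in the joint against the leaf. Their part in these results was not tested.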

How the data were processed

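RNA of 26 rice samples (13 groups of 2) was measured on 1-colour Affymetrix arrays. The deposited values are log2 expression per probe set, which the authors obtained by RMA (source: per the submitters' processing notes). Its version, background settings and probe definition were not given in the sources used here. Probe sets were named through the platform annotation, with symbols updated from the RefSeq gene table. All 57258 probe sets were fitted with limma 3.58.1 in R 4.3.3 (lmFit and eBayes, 13 group means, 13 residual degrees of freedom), and p-values were Benjamini-Hochberg adjusted over all of them. A call needed an adjusted p under 0.05 and 2-fold. Intensities and background were not used here, so the number of arrays limits precision. The script was tested on simulated data. Genes given with values are those called with the largest differences, the brightest of each class, the factors called in averaged comparisons and the 5 smallest F-test p-values; a few uncalled ones were added after their values were seen. The members, the lists and the 65-day comparison were chosen with earlier results of these data known. Promoters and other sequences were not analysed here. The alternatives were quantile normalization, a filter on dim probe sets (mean under 5), a replicate block, the Gapdh difference as covariate, the mean of all probe sets of a gene, the groups compared alone, and leaving out arrays.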

Additional observations from a re-analysis of the deposited data

Results flagged for a closer look

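In 9 of the 43 genes the stage steps differed between leaf positions by the limma F-test over 6 interaction contrasts. The adjusted p-values were 0.00324 for HSP81-1, 0.00368 for HSP24.1, 0.00424 for HSFB2C, 0.00452 for HSFA4D, 0.00529 for HSFB2A, 0.0102 for HSFA4B, 0.0125 for HSP17.4, 0.027 for HSFA2C and 0.048 for HSP17.7.

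HSP81-1, HSP24.1, HSFB2C, HSFB2A, HSFA4B and HSP17.4 share the low values of the 65-day joints. The 2 probe sets of HSP81-1 disagree, and with their mean its calls within single leaves and at 65 days were lost. HSFA4D differs in another way: its step at stage 4 against stage 2 was 4.65 in the third joint, 2.06 in the second and 0.50, not called, in the last. Without the second joint at stage 5 replicate 1 and the third joint at stage 4 replicate 2, HSFA2C (adjusted p = 0.0607) and HSP17.7 (adjusted p = 0.0506) no longer passed. HSP17.7 also missed the threshold with quantile normalization (0.0749), with the replicate block (0.0553), with the Gapdh covariate (0.0861) and with the mean of its probe sets (0.307).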

How the results depend on the processing

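Of 3072 values of 95 named gene results under alternatives, 2767 kept their direction and their side of the threshold, 273 lost a call, 27 gained one and 5 changed sign; the cause was not tested. With the Gapdh covariate the counts of genes called were 1 (joint against leaf), 2 (stage 6 against 5), 0 (last joint, stage 5 against 4), 5 (second joint, stage 6 against 5), and 5, 0 and 0 (the third joint, stage 4 against 2, 5 against 4 and 6 against 5). With the mean of all probe sets they were 2 for joint against leaf and 1 for the last joint at stage 5 against 4, with the groups compared alone 0 for stage 5 against 4, and with the dim filter 1 for joint against leaf. Without the second joint at stage 5 replicate 1 and the third joint at stage 4 replicate 2 they were 1 for joint against leaf, 0 and 3 for the second joint (stage 5 against 4, 6 against 5) and 0 for the third joint (stage 5 against 4). Leaving out 1 array at a time gave 8 to 11 genes for stage 4 against 2, 0 to 2 for stage 5 against 4, 3 to 4 for stage 6 against 5, 2 to 6 for 65 days, 7 to 11 for the F-test and 0 to 2 for joint against leaf. In the same order of steps it gave 1 to 6, 0 to 3 and 0 to 1 in the last joint, 5 to 14, 0 to 7 and 3 to 10 in the second joint, and 4 to 11, 0 to 1 and 0 to 1 in the third joint. Between leaf positions it gave 0 to 0 for the last against the third joint, 0 to 1 for the second against the third joint, and 0 to 1 for the last against the second joint. Signs changed for HSFA2D at 65 days (-1.17 with the mean of its probe sets), for HSFB2C at stage 4 against 2 (-0.19 to 0.46 over arrays left out) and for HSP24.1 in joint against leaf (-2.61 to 0.0729). Whether replicate numbers pair the samples is not known. Deviations of same-numbered arrays correlated over 0.1 in 24 of 78 pairs of groups, with a median of 0.04 and a range of -0.31 to 0.55. Such correlations cannot exclude a pairing of some groups. With the replicate block 3 genes were called in the third joint at stage 5 against 4, against 1 without it.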
